A study of Homo sapiens with 12 samples.

Results

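The 10 genes described here encode FREM2 and FRAS1, which belong to the FRAS/FREM family, 4 laminin chains (LAMA1, LAMA5, LAMB1 and LAMC1), 3 chains of collagen IV (COL4A1, COL4A2 and COL4A5) and the linker nidogen (NID1). They were taken by name from a table of 59385 gene names, and 10 of 10 were among the 18166 genes that passed the filter on low counts. The set was built around FREM2, which was chosen by its measured values: it had 2 to 3 counts in each polysome library of the knockdown line while its total RNA stayed near that of the control line. The values of FREM2 are therefore given as a description, with no test. The other 9 genes are those of the basement membrane named beside it. They were listed with earlier results of these data known, and their changes were tested.

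RNA was sequenced from HEK293T, a human line derived from embryonic kidney, carrying a Dox-inducible shRNA either against PRRC2B (shPRRC2B) or without a target in the cells (shCtrl). Both lines had been given Dox for 36 h. For each line the study sequenced total RNA, extracted from cells in Trizol, and RNA of the pooled gradient fractions 6 to 10, which hold mRNAs with several ribosomes (polysome RNA), from lysates cleared of nuclei, with 3 replicates in each of the 4 groups. Both kinds of RNA were enriched for poly(A). Each line was a single clone, so the shRNA and the clone cannot be told apart, and the comparison of translation between the lines is the one the design was made for.

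Basement membranes are thin sheets of extracellular matrix on which epithelia rest. Laminin trimers of an α, a β and a γ chain assemble at the cell surface, a network of collagen IV forms beside them, and nidogen and the proteoglycan perlecan tie both together. In this sheet FRAS1, FREM2 and FREM1 form a complex, whose loss in the embryo causes blistering, fused eyelids and missing kidneys (Fraser syndrome). These proteins are large, are made on ribosomes at the endoplasmic reticulum and leave the cell through the secretory pathway or, like FRAS1 and FREM2, carry a membrane anchor.

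Library totals ranged from 9855734 to 20837542 counts. Levels are given as CPM, counts scaled to a common library size after TMM, a scaling that allows for differences in composition. PRRC2B, the targeted gene, had 272, 313 and 258 CPM in the total RNA libraries of shCtrl and 97.9, 103 and 100.5 CPM in those of shPRRC2B, a 2.80-fold lower level (log2 change -1.49 ± 0.17, SE, adjusted p = 4.25e-06). In polysome RNA it had 17.4 ± 4.15 CPM (SD, n = 3) in shCtrl and 6.89 ± 1.97 CPM in shPRRC2B. The 5 markers of the HEK293 lineage (PAX2, LHX1, NEFM, NEFL and INA) summed to between 466 and 539 CPM in shCtrl total RNA and to between 211 and 219 CPM in shPRRC2B total RNA, and LHX1 was at 0 in every polysome library. The 5 fibroblast markers summed to between 20.7 and 26.7 CPM in shCtrl total RNA and to between 32.3 and 35.9 CPM in shPRRC2B total RNA, and in polysome RNA to between 8.57 and 12.3 and between 3.52 and 4.64 CPM. The 4 endothelial markers summed to between 0.069 and 0.37 CPM in shCtrl total RNA and to between 1.14 and 1.79 CPM in shPRRC2B total RNA, so for both lists the total RNA ranges of the lines were apart. The 2 leukocyte markers summed to between 0 and 0.14 CPM. The part of these marker levels in the results was not tested. In bulk RNA of this kind, fewer cells that use a gene and less RNA of it per cell cannot be told apart.

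The letters around the start codon are shown first, because translation begins there and the results concern translation. Each line gives the 9 bases before the start codon, the start codon in capitals and the 4 bases after it, from the canonical transcripts of GENCODE 44 on GRCh38.
FREM2: accgggaccATGcact
FRAS1: gaggcggcgATGggtg
LAMA1: ggaggcgagATGcgcg
LAMA5: gccgggaagATGgcga
LAMB1: ggagccggcATGgggc
LAMC1: ggcggcgggATGagag
COL4A1: cgcgccaccATGgggc
COL4A2: accgccagcATGggga
COL4A5: cggagaagaATGaaac
NID1: ttcgggaacATGttgg
All 10 windows had an A or a G at the position 3 bases before the ATG, which 86.2% of 18915 such windows of coding genes also had. A G directly after the ATG stood in 5 of the 10, against 51.7% of all windows, and FREM2 was among the 5 without it. An ATG within the 5′ UTR was present in FREM2, FRAS1, COL4A2 and COL4A5, that is in 4 of 10, against 41.9% of the 13584 coding genes tested. In both features the set thus lay near the share of all genes.

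FREM2 (chr13:38687077-38887131, plus strand) was held in total RNA and was almost missing from polysome RNA of the knockdown line. Its 24 exons make a transcript of 16122 nt, the longest of the set. In total RNA it had 42.9, 46.9 and 48.4 CPM in the shCtrl libraries and 38.3, 50.4 and 44.4 CPM in the shPRRC2B libraries. The total RNA values of the lines overlapped. In polysome RNA it had 5.34, 7.27 and 5.55 CPM in shCtrl, from 57, 67 and 50 counts, and 0.172, 0.287 and 0.285 CPM in shPRRC2B, from 2, 3 and 3 counts. The polysome values of the lines did not overlap, and all 3 knockdown libraries stood at or under 3 counts, where counting error alone is wide.

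The summed counts give the size of the FREM2 difference with its counting error. The 8 polysome counts of shPRRC2B against 174 in shCtrl correspond to a 24.5-fold lower level after scaling, with an exact 95% counting interval of 12.2 to 57.8, which covers counting error only. The 3245 against 3122 counts in total RNA correspond to a ratio of 0.983 (interval 0.936 to 1.03). The fitted log2 changes were -0.05 in total RNA, -4.58 in polysome RNA and -4.53 in translation efficiency (TE, the polysome level over the total level). These are the values for which the gene was chosen.

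Within shCtrl cells the FREM2 mRNA was 7.58-fold lower in polysome RNA than in total RNA (interval 6.50 to 8.88), a log2 difference of -2.93. The median was -0.22 over all genes tested and -1.67 over the 3033 genes whose transcripts were at least as long as the shortest of the set. The interval covers counting error only, not the scaling. With counts scaled by library totals in place of TMM, FREM2 had -3.93 and the median of all genes was -1.22. With the dependence on transcript length removed from each library, the FREM2 value was -0.75. In shPRRC2B the corresponding log2 difference was -7.46, or -4.41 with the length trend removed. These values rest on the libraries by which the gene was chosen and are a description too.

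**Figure D1:**
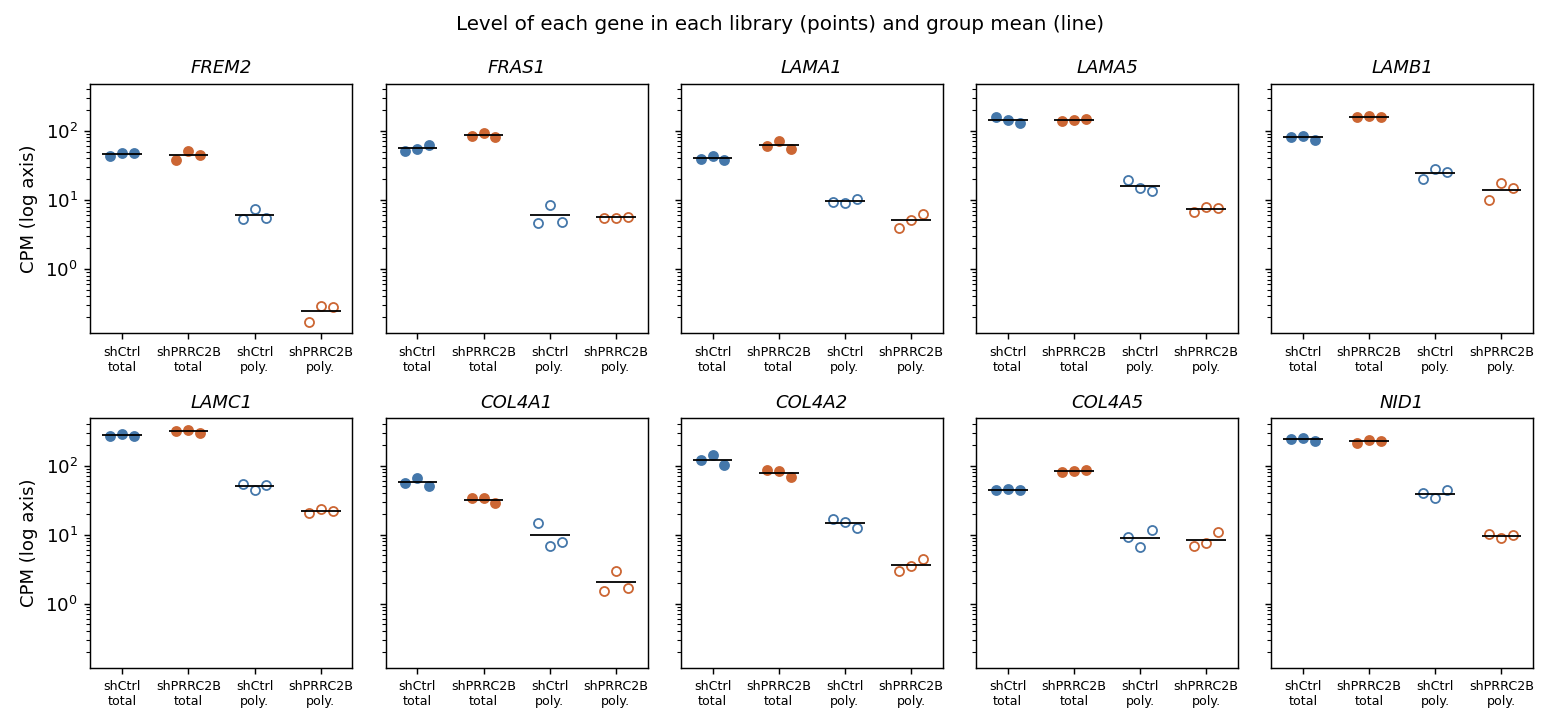
CPM (log axis) of each of the 10 genes in each of the 12 libraries, with filled points for total RNA, open points for polysome RNA, blue for shCtrl, orange for shPRRC2B and a line at the group mean (n = 3). FREM2 polysome values of shPRRC2B lie at 0.172 to 0.287 CPM against 5.34 to 7.27 CPM in shCtrl, while polysome values of FRAS1 and COL4A5 overlap between the lines.

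FRAS1 (chr4:78057323-78544269, plus strand), the partner of FREM2 in the same complex, has a transcript of nearly the same length, 15871 nt in 74 exons, and its values differed from those of FREM2. Total RNA rose from 50.7, 54.7 and 61.2 CPM in shCtrl to 84.4, 94.0 and 81.8 CPM in shPRRC2B (log2 change 0.64 ± 0.16, adjusted p = 0.00425). Polysome RNA had 4.59, 8.46 and 4.77 CPM in shCtrl and 5.50, 5.54 and 5.61 CPM in shPRRC2B, with the knockdown values inside the control range. The polysome change of -0.09 ± 0.21 did not pass the test (adjusted p = 0.764). The TE of FRAS1 fell by 0.74 on the log2 scale (SE 0.26, adjusted p = 0.0466), next to the threshold. The call was lost without any 1 of 9 of the 12 libraries (adjusted p from 0.0501 to 0.153), and without the second shCtrl polysome library the value was -0.45. Per length, FREM2 and FRAS1 had 2.86 ± 0.18 and 3.50 ± 0.33 CPM per kb in total RNA of shCtrl (SD, n = 3), with ranges that did not overlap, and 0.375 ± 0.066 and 0.374 ± 0.138 CPM per kb in polysome RNA, with ranges that did.

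The laminin chains lost polysome RNA in shPRRC2B cells in all 4 cases, with total RNA that rose for LAMA1 and LAMB1 and did not change detectably for LAMA5 and LAMC1. LAMC1 (chr1:183023420-183145592, plus strand) encodes the γ1 chain, which most laminins contain. Its polysome RNA fell from 53.5, 44.9 and 51.7 CPM to 20.4, 23.3 and 21.8 CPM, 2.29-fold lower (log2 change -1.20 ± 0.12, adjusted p = 1.03e-06). Total RNA had 266, 289 and 267 CPM in shCtrl and 314, 329.9 and 298 CPM in shPRRC2B, and the log2 change of 0.20 ± 0.11 did not pass the test (adjusted p = 0.192) although the groups did not overlap. The TE of LAMC1 fell by 1.39 (SE 0.17, adjusted p = 3.21e-05).

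LAMC1 is the one gene of the set that appears in the study's lists of PRRC2B binding sites, which came from PAR-CLIP, a method that crosslinks a protein to the RNA it touches. The lists hold sites of FLAG-tagged full-length PRRC2B and of a tagged RNA-binding fragment of it. The study took as bound those mRNAs on which sites of both overlap. Which list holds the LAMC1 site is not given here, so whether LAMC1 counts as bound in that sense is left open. The listed site is shown because it is the only one on a gene of the set. The site lies at chr1:183134693-183134792 on the plus strand of GRCh38, inside exon 23 of 28 and within the coding sequence, and 68 of its 100 bases are A or G. The capitals mark its 4 unbroken runs of at least 6 such bases.
LAMC1 site: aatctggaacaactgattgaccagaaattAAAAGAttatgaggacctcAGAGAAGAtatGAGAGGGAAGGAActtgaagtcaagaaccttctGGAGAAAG
The other 9 genes have no entry in those lists.

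LAMB1 (chr7:107923799-108003213, minus strand), the β1 chain, had the largest total RNA rise of the set. Total RNA went from 82.4, 84.5 and 73.1 CPM in shCtrl to 156, 164 and 157 CPM in shPRRC2B, 1.99-fold higher (log2 change 0.99 ± 0.16, adjusted p = 1.42e-04). Polysome RNA went the other way, from 19.9, 28.2 and 25.2 CPM to 10.1, 17.4 and 14.7 CPM (-0.80 ± 0.18, adjusted p = 0.00147). In neither fraction did the lines overlap, and the TE fell by 1.79 (SE 0.24, adjusted p = 6.43e-05).

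LAMA1 (chr18:6941742-7117797, minus strand), the α1 chain of early embryonic laminin, moved like LAMB1. Its total RNA rose from 38.4, 43.5 and 37.6 CPM to 60.4, 69.9 and 54.7 CPM (log2 change 0.63 ± 0.15, adjusted p = 0.00306). Its polysome RNA fell from 9.27, 9.11 and 10.4 CPM to 3.96, 5.06 and 6.28 CPM (-0.92 ± 0.19, adjusted p = 7.37e-04). The groups were apart in both fractions, and the TE fell by 1.55 (SE 0.24, adjusted p = 2.08e-04).

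LAMA5 (chr20:62307955-62367312, minus strand), the α5 chain of many mature basement membranes, kept its total RNA. It had 158, 141 and 129 CPM in shCtrl and 139.7, 143 and 147 CPM in shPRRC2B, with overlapping groups and a log2 change of 0.005 ± 0.13 (adjusted p = 0.982), the sign of which turned under 7 other ways of processing and in 9 of the 12 fits with 1 library left out. Polysome RNA fell from 19.3, 14.9 and 13.4 CPM to 6.62, 7.93 and 7.71 CPM, 2.15-fold lower (-1.10 ± 0.16, adjusted p = 3.39e-05). The TE fell by 1.11 (SE 0.21, adjusted p = 8.95e-04).

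The collagen IV chains split by gene. COL4A1 (chr13:110148963-110307157, minus strand) and COL4A2 (chr13:110305812-110513209, plus strand), which encode the chains of the common collagen IV of most tissues, were lower in shPRRC2B in total RNA and lower still in polysome RNA. COL4A1 had 55.9, 66.1 and 50.2 CPM in shCtrl total RNA and 33.6, 34.3 and 28.3 CPM in shPRRC2B (log2 change -0.84 ± 0.21, adjusted p = 0.00539). COL4A2 had 119, 143 and 102 CPM in shCtrl total RNA and 85.1, 82.6 and 68.6 CPM in shPRRC2B (-0.63 ± 0.15, adjusted p = 0.00396), and this call was lost without the second shCtrl total RNA library, where the value was -0.49. For both genes the total RNA values of the lines did not overlap.

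In polysome RNA, COL4A1 went from 14.6, 6.94 and 7.76 CPM to 1.55, 2.96 and 1.71 CPM, 4.77-fold lower (log2 change -2.25 ± 0.30, adjusted p = 1.52e-05). COL4A2 went from 16.9, 15.0 and 12.6 CPM to 2.92, 3.53 and 4.38 CPM, 4.12-fold lower (-2.04 ± 0.20, adjusted p = 6.70e-07). The first shCtrl polysome library was the highest for both genes, and for COL4A1 it stood apart from the other two. The TE fell by 1.41 for COL4A1 (SE 0.37, adjusted p = 0.00936) and by 1.42 for COL4A2 (SE 0.25, adjusted p = 6.53e-04). With 1 library left out in turn, the TE change of COL4A1 ranged from -1.79 to -1.03.

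COL4A1 and COL4A2 lie head to head, and their canonical transcripts start 126 bases apart, so both are read outward from 1 shared stretch of DNA. That stretch is chr13:110307158-110307283 of GRCh38, with a GC content of 80.2%. It is described because the total RNA of both genes moved the same way. It reads as follows on the plus strand, with the motifs found in it in capitals.
COL4A1-COL4A2 stretch: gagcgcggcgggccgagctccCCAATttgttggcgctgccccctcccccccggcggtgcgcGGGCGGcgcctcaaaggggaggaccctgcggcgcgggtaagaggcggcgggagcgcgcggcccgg
Among the 126 bases, 1 CCAAT (the box bound by NF-Y) and 1 GGGCGG (the GC box bound by Sp1) were found on the plus strand, which do not overlap, and both strands were searched. Of the 35116 windows of 126 bases before RefSeq gene starts (GRCh38.p14), 21.1% held a CCAAT, 34.6% a GGGCGG and 7.39% both. A match of letters is no evidence of binding.

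COL4A5 (chrX:108439838-108697545, plus strand), a chain of the collagen IV of kidney glomeruli, went the other way in total RNA. It had 44.8, 45.5 and 44.4 CPM in shCtrl and 81.8, 83.8 and 87.3 CPM in shPRRC2B, 1.88-fold higher (log2 change 0.91 ± 0.16, adjusted p = 3.98e-04). Polysome RNA had 9.08, 6.51 and 11.5 CPM in shCtrl and 6.88, 7.64 and 10.8 CPM in shPRRC2B. These values overlapped, and the change of -0.10 ± 0.20 did not pass the test (adjusted p = 0.723). The TE of COL4A5 fell by 1.01 (SE 0.26, adjusted p = 0.00789), of which most lay in the total RNA rise.

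NID1 (chr1:235975830-236065109, minus strand) encodes nidogen, the link between the laminin and collagen IV networks, and had the lowest TE value among the 9 genes tested, next to LAMB1. Without the second shPRRC2B polysome library their order turned, with -1.893 for NID1 and -1.999 for LAMB1, and it turned as well without the first shCtrl polysome library. Its total RNA had 241, 254 and 225 CPM in shCtrl and 214, 232 and 223 CPM in shPRRC2B, which overlap (log2 change -0.11 ± 0.12, adjusted p = 0.512). Its polysome RNA fell from 39.6, 34.0 and 43.8 CPM to 10.1, 8.79 and 9.80 CPM, 4.08-fold lower (-2.03 ± 0.14, adjusted p = 9.72e-09). All 3 knockdown libraries lay far under the lowest control library, and the TE fell by 1.92 (SE 0.18, adjusted p = 9.40e-06).

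**Figure D2:**
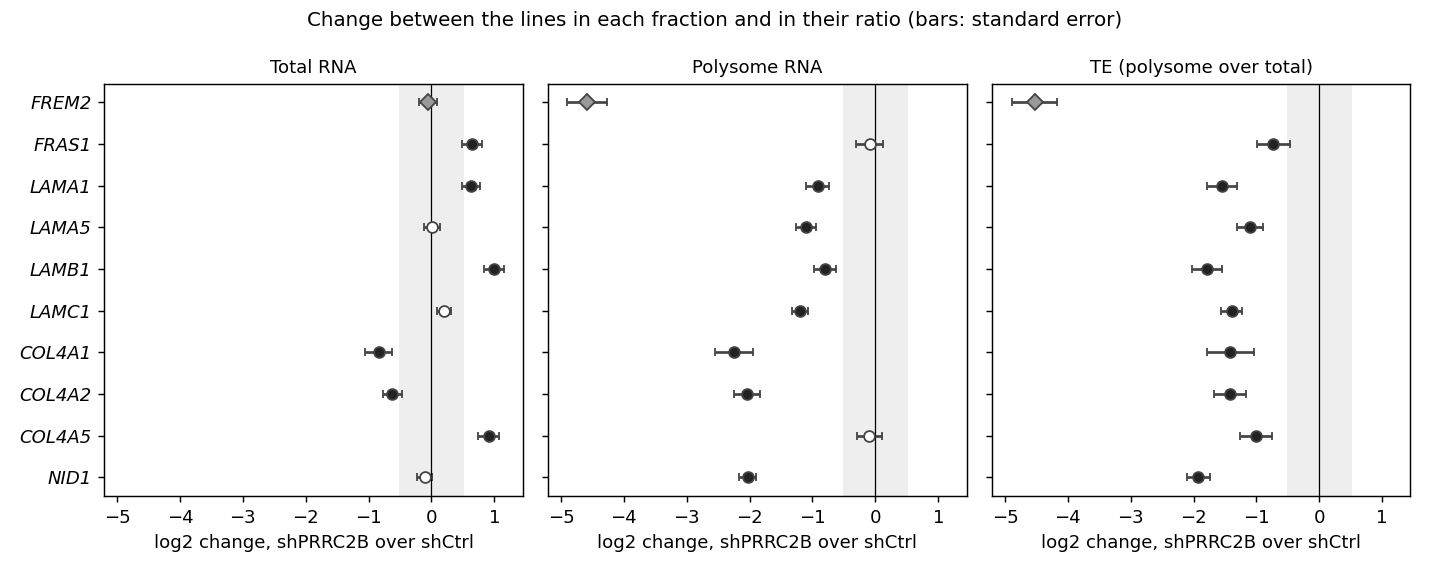
Log2 change of shPRRC2B over shCtrl in total RNA, in polysome RNA and in TE for the 10 genes, with the standard error as bars, filled circles for changes that passed the test, open circles for those that did not, a grey diamond for FREM2 (not tested) and grey shading between -0.5 and 0.5. Polysome values run from -2.25 (COL4A1) to -0.09 (FRAS1) among the 9 genes tested, total RNA values from -0.84 to 0.99, and all TE values lie left of the shading.

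Counted over the 9 genes tested, TE fell for 9 and rose for 0, where a call needed a log2 change beyond 0.5 in size and an adjusted p below 0.05 by edgeR. By unadjusted p and by DESeq2 the number that rose was also 0. Of all 18166 genes tested, 16.4% fell by this rule, and of the 3033 genes whose transcripts were at least as long as the shortest of the set, 42.3% did. The median TE change of the 9 genes was -1.41, against -0.03 over all genes and -0.67 over the long ones. Polysome RNA fell for 7 of the 9 (all but FRAS1 and COL4A5), against 21.4% of all genes and 43.2% of the long ones, and rose for 0 by edgeR (also 0 by unadjusted p and by DESeq2), against 18.4% of all genes. Total RNA rose for 4 (FRAS1, LAMA1, LAMB1 and COL4A5), against 14.9% of all genes, and fell for 2 (COL4A1 and COL4A2), against 14.1%. The share that rose in total RNA was 22.6% among the long transcripts.

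The TE falls, from 0.74 for FRAS1 to 1.92 for NID1, thus came with different changes of total and polysome RNA. The genes are sorted here by which changes passed the test. In LAMA5, LAMC1 and NID1 the polysome RNA fell and no total RNA change passed the test, which is also how the FREM2 values look. In LAMA1 and LAMB1 the total RNA rose while the polysome RNA fell. In FRAS1 and COL4A5 the total RNA rose and no polysome change passed the test, and in COL4A1 and COL4A2 both fell, the polysome RNA more. This sorting depends on the processing. With the dependence on transcript length removed from each library, total RNA rose for 2 genes in place of 4, and the polysome RNA of FRAS1 was called higher. Polysome RNA then fell for 5 genes in place of 7, against 18.9% of the genes in that fit.

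Within each line, these mRNAs were low in polysome RNA. In shCtrl the polysome level was below the total level for 9 of the 9 genes tested, against 39.8% of all genes and 76.3% of the long ones. The log2 differences ran from -3.23 for FRAS1 to -1.72 for LAMB1, or from -3.01 to -1.49 relative to the median of all genes. In shPRRC2B it was below for 9 of the 9 genes tested, against 42.3% of all genes and 79.9% of the long ones, with log2 differences from -4.54 for NID1 to -3.32 for COL4A5. These values depend on the scaling of polysome against total libraries: with total counts in place of TMM, the median of all genes moved from -0.22 to -1.22 in shCtrl and from -0.22 to -1.16 in shPRRC2B. The genes called lower and higher in polysome RNA numbered 7222 and 5906 in shCtrl and 7676 and 6655 in shPRRC2B with TMM, against 10675 and 3211 and against 10204 and 4283 with total counts. The direction stayed the same for all 10 genes under each scaling tried. With the length trend removed, 7 of the 9 genes were called lower in shCtrl polysome RNA, against 29.8% of the genes in that fit. The calls of LAMA1 (-0.27) and LAMB1 (-0.49) were lost. The median of the 9 genes moved from -2.54 to -1.05 in shCtrl and from -3.96 to -1.55 in shPRRC2B. In shPRRC2B 9 of 9 stayed called, against 33.8% of the genes in that fit.

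Transcript length moved with TE across the whole table, and all 10 genes are long. Their canonical transcripts run from 5650 nt (LAMB1) to 16122 nt (FREM2), where the median of the genes tested was 3052 nt and 80.6% were shorter than LAMB1. Across the 15638 genes with a known length, Spearman's rho with length was -0.41 for the TE change and -0.57 for polysome over total RNA in shCtrl, as a description over genes that share the same 12 libraries. Coding sequences of the set ran from 3741 to 12036 nt, against a median of 1419 nt, and exon numbers from 20 to 80, against a median of 9. The 3′ UTRs, with a median of 1284 nt, were near the median of 1328 nt of all coding genes tested, and the longest was the 6344 nt of FREM2.

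With the trend of the counts on length taken out of each library, the TE fell for 5 of the 9 genes, against 10.8% of the genes in that fit. These were NID1 at -1.41, LAMB1 at -1.28, COL4A2 at -0.84, LAMA1 at -0.77 and LAMC1 at -0.71. COL4A1 had -0.84, COL4A5 -0.42 and LAMA5 -0.29 without passing the test, and FRAS1 turned to 0.16. FREM2 had -3.66. What in transcript length, if anything, makes the counts differ between the fractions was not tested.

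FREM2 and FRAS1 can also be set beside the 115 tested coding genes with transcripts of at least 15000 nt. The median TE change of these genes was -0.74, and 41.7% of them fell. FREM2 was the lowest of the 115, as a description of a gene chosen for this value, with the next lowest gene at -2.76, and FRAS1 was number 58.

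**Figure D3:**
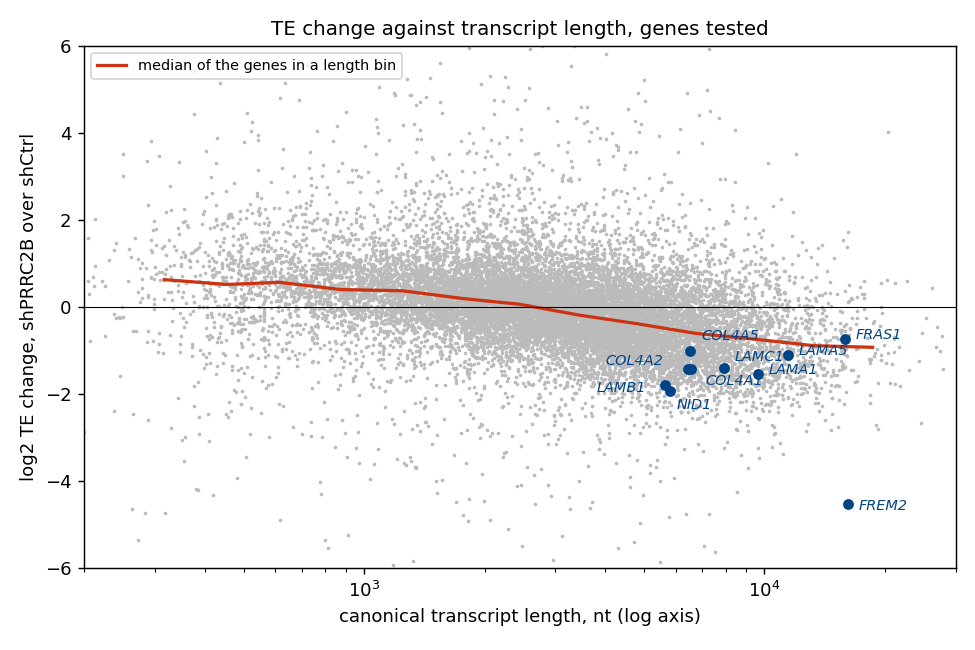
TE change (log2, shPRRC2B over shCtrl) against canonical transcript length (nt, log axis) for the genes tested with a known length (grey), the median per length bin (red line) and the 10 genes (blue). A few genes lie outside the axis. The red line falls with length, FRAS1 lies on it, and FREM2 at -4.53 lies far under it.

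Per length of transcript, the order of the total RNA levels in shCtrl began with NID1 (41.4 ± 2.49 CPM per kb, SD, n = 3) and LAMC1 (34.6 ± 1.62). COL4A2 (18.8 ± 3.23), LAMB1 (14.2 ± 1.07) and LAMA5 (12.5 ± 1.25) followed, and of these LAMB1 and LAMA5 overlapped between libraries. The lower end was formed by COL4A1 (8.77 ± 1.23), COL4A5 (6.87 ± 0.09), LAMA1 (4.13 ± 0.33), FRAS1 (3.50 ± 0.33) and FREM2 (2.86 ± 0.18), each apart from its neighbours. In shPRRC2B total RNA, LAMC1 (39.6 ± 2.01) and NID1 (38.5 ± 1.57) overlapped at the top, and LAMB1 (28.2 ± 0.77) stood next, above COL4A5 (12.9 ± 0.43). FREM2 (2.75 ± 0.37) was again last and apart from its neighbour COL4A1 (4.91 ± 0.50).

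In polysome RNA of shCtrl the same order began with NID1 (6.76 ± 0.85 CPM per kb) and LAMC1 (6.31 ± 0.57), which overlapped, and ended with LAMA1 (1.00 ± 0.07), FREM2 and FRAS1, the last pair overlapping. In polysome RNA of shPRRC2B it began with LAMC1 (2.75 ± 0.18) and LAMB1 (2.49 ± 0.66) and ended with FRAS1 (0.350 ± 0.004), COL4A1 (0.317 ± 0.118) and FREM2 (0.0154 ± 0.0041). FREM2, beside FRAS1 in shCtrl, was apart from all others in shPRRC2B, where its polysome counts are those by which it was chosen.

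Other genes of the basement membrane and its making were read from 6 lists with 45 genes, of which 41 were tested. TE fell for 19 of these, against 16.4% of all genes, and rose for 3, against 10.7%, with a median of -0.67. Of the long transcripts named above 42.3% fell, and their median was also -0.67. Total RNA rose for 9, against 14.9% of all genes and 22.6% of the long ones, and fell for 10, against 14.1% of all genes. Polysome RNA rose for 6, against 18.4% of all genes, and fell for 17, against 21.4% of all genes and 43.2% of the long ones. The lists have a median transcript length of 5408 nt, above that of all genes. With the length trend removed TE fell for 12 list genes, against 10.8% of the genes in that fit.

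Among the partners of FRAS1 and FREM2, TE changed for 0 of 5 tested genes by edgeR and by DESeq2, and for 1 by unadjusted p. Of all genes tested, 16.4% fell and 10.7% rose by edgeR. VWA2, among the 5, had at most 1 count in a polysome library and a TE change of 2.88 ± 2.69. FREM1, which completes the complex, was scarce, with at most 62 counts in a library and a TE change of -0.67 ± 0.89 (adjusted p = 0.616), and FREM3 was listed at 0 in every library. GRIP1, which carries the complex to the cell surface, had -0.80 ± 0.32 (adjusted p = 0.0764), and its polysome RNA fell by 0.80 (adjusted p = 0.0213). NPNT, the nephronectin that binds integrin α8 in kidney development, had log2 changes of -2.17 in total RNA and -2.31 in polysome RNA, both called, and a TE change of -0.15 ± 0.43.

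Other laminin chains went both ways. LAMA2, the α2 chain of muscle and nerve, had a TE that fell by 3.47 (SE 0.44, adjusted p = 5.11e-05), with total RNA that rose from 2.73 ± 0.45 to 20.0 ± 0.68 CPM and polysome RNA of 2.94 ± 1.63 and 1.96 ± 0.58 CPM. The TE of LAMC3 fell by 0.98 (adjusted p = 0.00671) while its total RNA rose by 1.96 on the log2 scale, and that of LAMB2 fell by 0.65 (adjusted p = 0.0215). LAMA4, the α4 chain of vessels, rose in TE by 0.99 (adjusted p = 0.00652), from 35.9 ± 7.72 to 66.3 ± 15.9 CPM in polysome RNA with total RNA of 34.0 ± 0.92 and 31.6 ± 1.66 CPM. LAMB3 rose as well, but with at most 28 counts in any library. For the other collagen IV chains (COL4A3, COL4A4 and COL4A6), 0 of 3 passed the TE test by edgeR, by DESeq2 or by unadjusted p. Of all genes tested, 16.4% fell and 10.7% rose by edgeR. COL4A3 and COL4A4 had at most 6 and 9 counts in a polysome library, and their TE changes had SEs of 1.01 and 0.54.

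Among linkers and proteoglycans, TE fell for 2 of 4 tested, against 16.4% of all genes and 42.3% of the long ones. These were HSPG2 (perlecan, log2 change -1.24, adjusted p = 0.0315) and COL18A1 (-1.13, adjusted p = 7.06e-04). HSPG2 total RNA rose by 0.87, and its polysome change of -0.37 was not called, with at most 24 counts in a polysome library. COL18A1 polysome RNA fell by 1.57. DESeq2 called all 4, against 18.5% of all genes. Among receptors TE fell for 5 of 9, against the same shares of 16.4% and 42.3%, and rose for 1, against 10.7% of all genes. The total RNA of DAG1, the dystroglycan that holds laminin at the cell surface, fell by 0.67, from 160 ± 8.44 to 101 ± 4.22 CPM. Its polysome RNA fell from 20.2 ± 3.65 to 3.04 ± 0.18 CPM, and its TE by 2.06 (SE 0.21, adjusted p = 1.11e-05). The integrin chains ITGA6 (-1.56), ITGA2 (-1.53) and ITGB1 (-1.20) fell as well, ITGB1 with polysome RNA that did not change detectably (56.7 ± 9.84 and 54.6 ± 5.03 CPM) and total RNA that rose from 90.6 ± 2.84 to 200.04 ± 12.6 CPM. ITGB4 rose by 1.28 (adjusted p = 0.0354).

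Genes for collagen modification and export, whose transcripts are shorter (median 2976 nt), fell in TE for 9 of 13 and rose for 0, by edgeR and by DESeq2 (0 rose by unadjusted p). Of all genes tested, 16.4% fell and 10.7% rose by edgeR. MIA3 (TANGO1), which loads large collagens into transport carriers, fell by 1.22 (SE 0.17, adjusted p = 1.10e-04), from 26.1 ± 2.86 to 11.2 ± 0.41 CPM in polysome RNA with 86.4 ± 5.38 and 86.4 ± 2.41 CPM in total RNA. PXDN, the peroxidasin that crosslinks collagen IV, fell by 1.21 (adjusted p = 0.00193). The TE of SERPINH1 (HSP47), the collagen chaperone, fell by 0.77 (adjusted p = 0.0025). Its total RNA rose by 0.66, and its polysome change of -0.11 was not called. That of the collagen galactosyltransferase COLGALT1 fell by 0.87 in TE (adjusted p = 0.00467), with a polysome change of -0.48 that was not called.

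**Figure D4:**
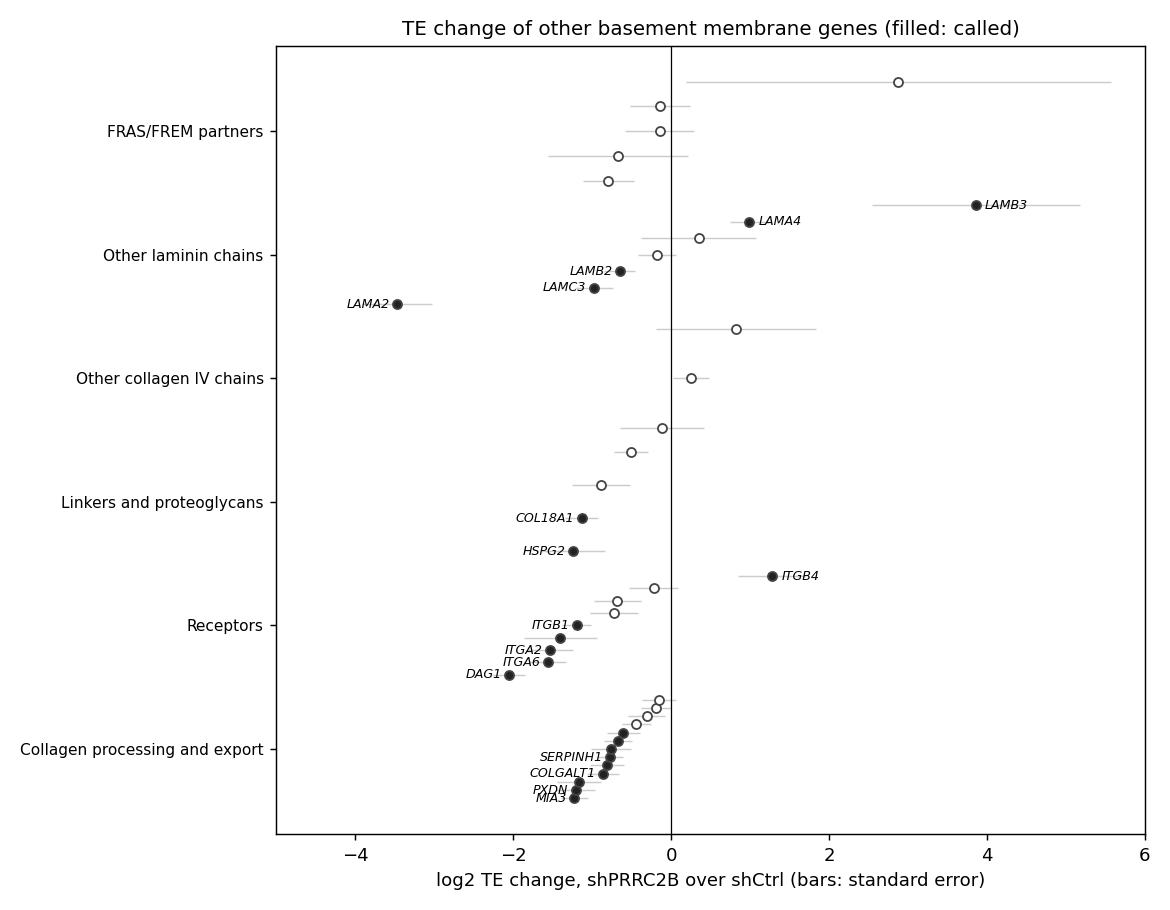
TE change (log2, shPRRC2B over shCtrl, bars for the standard error) of the 41 tested genes in the 6 lists, filled where the change passed the test, with the name of up to 5 such genes per list. Filled points on the left number 19 and on the right 3, and the partners of FRAS1 and FREM2 and the other collagen IV chains have no filled point.

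The genes whose log2 CPM followed that of FREM2 most closely over the 12 libraries, among the 15239 genes that averaged 1 CPM or more, were ZBTB34 (Pearson's r = 0.997), RP4-773N10.4 (0.996), RBAK (0.995), ADGRL2 (0.993) and CTC-524C5.2 (0.992). ZBTB34 went from 8.43 to 2.37 CPM between the polysome means of shCtrl and shPRRC2B, and RP4-773N10.4 from 2.04 to 0.0922 CPM. The measure spans both fractions and both lines, and likeness within a fraction was not tested. Within the set, r with FREM2 ran from 0.84 for COL4A5 to 0.98 for NID1.

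Reads from overlapping genes limit some values, since the counting options given in the methods name no strand setting, and the default of featureCounts ignores the strand. FREM2-AS1 was at 0 in every library, and LAMA5-AS1, LAMC1-AS1, COL4A2-AS1 and COL4A2-AS2 had at most 10, 17, 2 and 3 counts in any library. LAMB1 overlaps DLD on the opposite strand, which had 86.9 ± 3.06 and 131 ± 3.23 CPM in total RNA and 91.5 ± 24.0 and 52.9 ± 8.08 CPM in polysome RNA of shCtrl and shPRRC2B. LAMA5 overlaps ADRM1, which had 89.9 ± 12.6 and 114 ± 10.5 CPM in polysome RNA. The models of COL4A1 and COL4A2 overlap each other near their starts. How many reads fell in these overlaps was not tested.

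**Figure D5:**
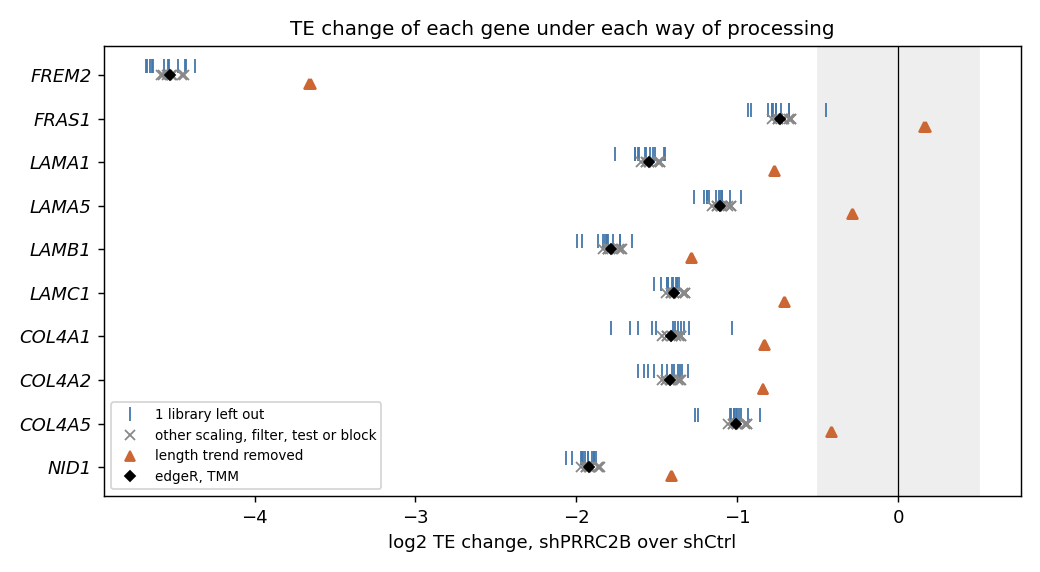
TE change (log2, shPRRC2B over shCtrl) of the 10 genes under each way of processing, with black diamonds for edgeR with TMM, blue ticks for fits with 1 library left out, grey crosses for other scalings, filters, tests and blocks, orange triangles for the length trend removed and grey shading between -0.5 and 0.5. Removing the length trend moves every gene to the right, LAMA5 and COL4A5 into the shading and FRAS1 past 0 to 0.16.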

How the data were processed

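The values used are whole-number counts as the authors deposited them, for each gene name in each library, with no normalization. Per the submitters' processing notes and the methods, the steps before them were Trimmomatic 0.36, HISAT2 on GRCh38 (2.1.0 in the notes, a different version in the methods), and featureCounts of Subread 2.0.1 with GENCODE 38 and no strand option. Library totals ranged from 9855734 to 20837542. The labels call the replicates biological triplicates. All 12 pairs of replicates differed by more than counting noise. The chi-square per degree of freedom ran from 3.26 to 8.57 for total RNA pairs and from 13.8 to 75.2 for polysome pairs. The fit described next took a common estimate of the spread for both fractions.

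The test was that of edgeR 4.0.16 under R 4.3.3 (quasi-likelihood test, TMM, filterByExpr with a minimum count of 10, no block, all 12 libraries in 1 fit) and Benjamini-Hochberg adjustment over the 18166 genes tested. A call needed a log2 change beyond 0.5 in size with an adjusted p below 0.05. Errors are SDs over 3 replicates or standard errors (SE) of the fit. Intervals for FREM2 are exact conditional Poisson intervals and cover counting error only. Pearson's r used log2 CPM with a prior count of 2. Transcript lengths and sequences came from GENCODE 44, since the models of release 38 were not used here. 86.1% of the tested genes had a length. The pipeline was tested on simulated data.

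The genes and lists were chosen with earlier results of these data known. Named were the 10 genes, PRRC2B, up to 4 called genes of each list by smallest p, the 5 genes most like FREM2 and antisense rows named after the 10; any others were named after their values were seen. Alternatives were DESeq2 1.42.0, RLE size factors, total counts, TMM within fractions, other count filters, replicate blocks, the length trend removed (lowess, span 0.3), 1 line or fraction alone, and each library left out.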

Additional observations from a re-analysis of the deposited data

Results flagged for a closer look

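For the 9 genes other than FREM2, the ratio of polysome to total RNA differed between the lines by the interaction term of the edgeR fit, which is the TE change. The log2 values were -1.92 for NID1, -1.79 for LAMB1, -1.55 for LAMA1, -1.42 for COL4A2, -1.41 for COL4A1, -1.39 for LAMC1, -1.11 for LAMA5, -1.01 for COL4A5 and -0.74 for FRAS1. Groups of 3 libraries are too small for a test of single libraries that stand apart.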

How the results depend on the processing

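With the length trend removed, with or without a replicate block, the TE fell for 5 of the 9 genes in place of 9, total RNA rose for 2 in place of 4, and polysome RNA rose for 1 in place of 0 (FRAS1, at 0.56, or 0.58 with the block, in place of -0.09). Polysome RNA fell for 5 in place of 7 with the length trend removed, and for 4 with the block added. TE of FRAS1 turned to 0.16, or 0.17 with the block, and polysome RNA of COL4A5 to 0.33 in both. The shCtrl polysome over total calls of LAMA1 and LAMB1 were lost with the length trend removed, and that of LAMA1 with the block added. TE fell for 12 of the 41 list genes with the length trend removed and for 9 with the block added, in place of 19. Of all genes in those 2 fits, 10.8% and 9.91% fell. The total RNA change of LAMA5, 0.005, was -0.069 with total counts, -0.040 with TMM within fractions, -0.034 with all genes of at least 1 count, -0.017 with genes of at least 10 counts in every library, -0.22 with the length trend removed, -0.21 with the block added and -0.040 with the total RNA libraries alone. Polysome RNA rose for 3 list genes in place of 6 with the polysome libraries alone. The cause of these shifts was not tested, except that FREM2 has no value where 10 counts are asked of every library. With 1 library left out, the total RNA change of LAMA5 ranged from -0.064 to 0.081, the polysome change of FRAS1 from -0.34 to 0.15 and the TE change of PRRC2B (0.16) from -0.15 to 0.30, the number of the 9 genes whose total RNA fell from 1 to 2, and the number of list genes whose TE rose from 1 to 3. It was 1 without the first shCtrl total, first shCtrl polysome, first or last shPRRC2B total or last shPRRC2B polysome library. Same-numbered libraries did not deviate together (correlations from -0.06 to 0.05 over 18 pairs). The labels do not say whether they share a culture. These correlations cannot decide it, since a shared effect smaller than the spread of the replicates would not show. With the replicate block alone, TE fell for 8 of the 9 genes, with FRAS1 at -0.72 (adjusted p = 0.0535). Its call was also lost with total counts (0.0768), TMM within fractions (0.067), genes of at least 10 counts in every library (0.0532) and a block within each line (0.0674).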
